A study of Rattus norvegicus with 24 samples.

Results

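The genes described here encode protein kinases, protein phosphatases, heterotrimeric G protein subunits and their close regulators. They were taken by symbol from a rat kidney cDNA array: every measured probe whose single gene symbol begins with Map2k, Map3k, Mapk, Prk, Camk, Csnk, Pik3, Akt, Cdk, Rps6k, Ppp, Ptp, Dusp or Rgs, with Gna, Gnb or Gng followed by a digit, or that is Grb2, without Ppp1r1a and Ppp1r15a. The rule found 63 genes, each with 1 measured probe, among the 1762 features (genes, and probes without a single symbol) that had a value on at least 1 array. The table lists 69 genes by this rule, and the other 6 had no value. One of the 63, Aktip, is an Akt-interacting protein and not a kinase, and the digit rule left out the G protein alpha subunits Gnai2, Gnai3 and Gnas, which are given further down with other signalling genes.

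Kinases attach phosphate to proteins and phosphatases remove it, so that a cell can switch its enzymes, channels and transcription factors on and off. Heterotrimeric G proteins, made of alpha, beta and gamma subunits, carry signals of hormone receptors such as those for vasopressin and angiotensin to such kinases. In the kidney these pathways control tubular transport of sodium and water, vessel tone and growth, and much of that control acts on the proteins and not on their mRNA.

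The study compared kidney RNA of rats marked LS with rats marked HS in the array titles, read here as low and high salt. It used 2 strains, the salt-sensitive Dahl rat, called SS, and the consomic SS-13BN/Mcw, which carries a Brown Norway chromosome 13 in an otherwise SS genome. Total RNA of 1 rat in Cy5 and of another rat of the same strain in Cy3 shared each of 24 arrays. Of the 4 groups, SS overnight, SS at 3 days, SS-13BN/Mcw overnight and SS-13BN/Mcw at 3 days, each held 3 rat pairs with every pair on 2 arrays of opposite dye. Rats 1 to 3 of a strain stand in the pairs of both times, so comparisons of both times share these animals. The sources used here do not give age, sex, the salt content of the diets or the region of the kidney.

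Levels and differences are both printed on the log ratio scale of the deposited table. Its base and its numerator are not stated, so the text gives no folds and no direction with salt, and speaks of a positive and a negative side. After the mean of each dye orientation was subtracted, the 2 arrays of a pair correlated with r of 0.17 or more in 12 of 12 pairs, and the ratio was taken to run one way on all arrays. With the orientation means left in, 4 of the 12 pairs had a negative r, and the range was -0.059 to 0.75. The sign of every pair value rests on this choice, and with 1 array of each pair turned by its dye 10 genes in place of 2 passed in SS overnight. A pair value is the mean of both arrays of a pair. An array held 877 to 1412 values. A ratio table holds no expression levels, so the tissue could be checked only by presence: 13 of 16 proximal tubule markers and 5 of 7 markers of the thick ascending limb and distal tubule had values. So had 7 of 8 fibroblast and matrix markers. Of the other lists, 2 of 5 collecting duct, 2 of 5 endothelium, 2 of 7 leukocyte, 2 of 4 blood and 1 of 4 glomerulus markers had values. The lists were counted whole, whether or not the array carries each gene, and a value on 1 array sufficed. The glomerulus marker Wt1 and the blood marker Alas2 had no pair value. Presence therefore does not single out the tubule and says little about the tissue. Each array title holds a number of its own, read here as a slide number. The titles do not say what it is or that it gives an order of processing. SS overnight had numbers 18 to 23, below all others, and SS at 3 days 36 to 41, above all but 1 of SS-13BN/Mcw. If the number is an order, it cannot be told apart from the groups in SS.

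Of the 63 genes, 25 had a value in all 12 pairs, 28 in 1 to 11 pairs and 10 in none. A gene was tested in a group where at least 2 of its 3 pairs had a value from both dye orientations, which held for 39 genes in at least 1 group and for 30 genes in all 4. The 24 genes tested in no group had values on 1 to 14 arrays, and the pair values of the 14 of them that had any lay between -0.40 and 0.49. Among the untested genes were the immediate early MAP kinase phosphatase Dusp1 and Csnk2a1, a catalytic subunit of casein kinase 2, both without a single pair value. The others without one were Mapk8ip2, Mapkapk5, Camk2b, Camkk1, Ppp1cc, Ppp1r9a, Ptpre and Ptprr. The cell cycle kinase Cdk1 had 1 pair per group, from -0.10 in SS-13BN/Mcw overnight to 0.32 in SS-13BN/Mcw at 3 days.

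Most of these genes stayed close to 0 next to their own spread. In the 25 genes with all 12 pairs the median size of the mean was 0.051, while the median SD between pairs of a group was 0.15 and the median distance from the lowest to the highest pair was 0.50. All 25 had pairs on both sides of 0. Across the genes tested in a group, the median size of the group value was 0.065 in SS overnight, 0.071 in SS at 3 days, 0.085 in SS-13BN/Mcw overnight and 0.096 in the 3-day group of SS-13BN/Mcw, beside 0.10, 0.087, 0.15 and 0.097 over all features tested. Positive genes numbered 19 of 39, 20 of 32, 21 of 36 and 22 of 33 in the same order, and over all features the positive shares were 51.6%, 48.6%, 49.6% and 49.2%.

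If the ratio runs one way on all arrays, as taken here, dye orientation moved many of these genes more than the rat-to-rat ratio did. With arrays turned by their dye, the difference between orientations would itself count as the rat-to-rat ratio. Ppp1ca, a catalytic subunit of protein phosphatase 1, averaged -0.46 on the 12 arrays with the high-numbered rat in Cy5 and 0.26 on the 12 arrays with the low-numbered rat in Cy5. For Rps6kb1, the S6 kinase that promotes translation downstream of mTOR, these means were -0.24 and 0.38, and no pair had both its arrays on one side. Prkar1a, a regulatory subunit of protein kinase A, ran the other way with 0.25 and -0.22. In 18 of the 25 genes with 12 pairs the shift of either orientation from the pair mean was larger than the pair mean itself, as it was in 59.7% of all 700 features with 12 pairs. The difference between orientations had 1 sign in every pair for 11 of the 25, against 35.9% of those 700 features. Map2k1 stood apart from these examples, with 0.19 and 0.17 on arrays of either orientation.

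**Figure D1:**
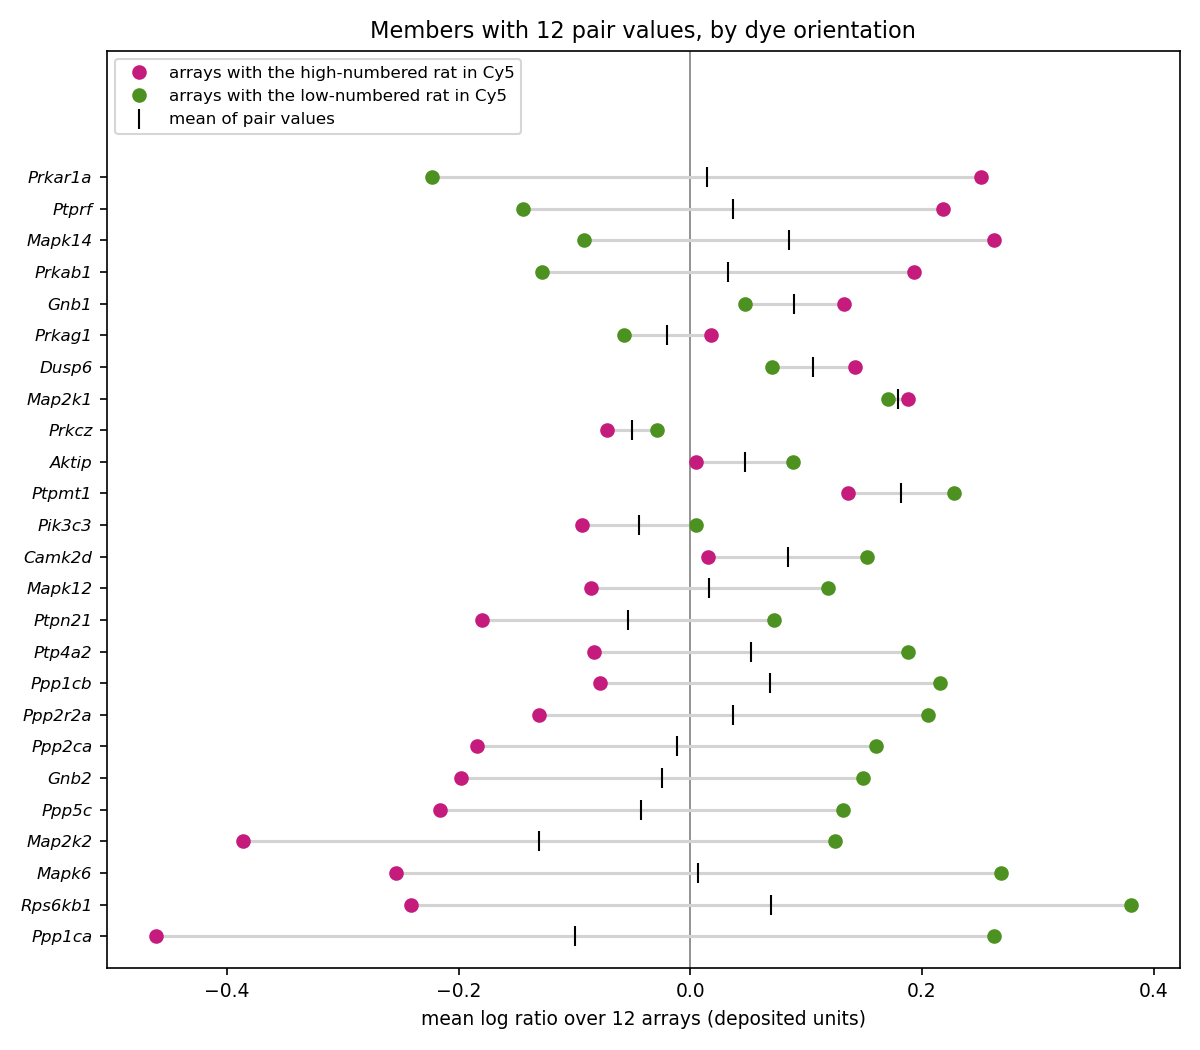
Mean log ratio (horizontal axis, deposited units) of the 25 genes with 12 pair values, on the 12 arrays with the high-numbered rat in Cy5 and on the 12 arrays with the low-numbered rat in Cy5, with the mean of the pair values as a black mark. Ppp1ca runs from -0.46 to 0.26 while Map2k1 stays at 0.19 and 0.17.

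The widest comparison set the average of all 4 groups against 0, and 3 of 30 genes passed an adjusted p of 0.05 by limma, 1 on the positive and 2 on the negative side. Over all 821 features tested 26.7% passed, 12.5% on the positive and 14.1% on the negative side. At an unadjusted p under 0.05 stood 6 of the 30, against 41.2% of all features. The 3 genes were Map2k1, the MAP kinase kinase that phosphorylates ERK, at 0.18 ± 0.044 (SE, adjusted p = 0.0107), Ppp1r10, a nuclear targeting subunit of protein phosphatase 1, at -0.31 ± 0.073 (SE, adjusted p = 0.0102), and Pik3r2, a regulatory subunit of phosphoinositide 3-kinase, at -0.22 ± 0.061 (SE, adjusted p = 0.0215). When the rat common to both times was fitted as a random block, Pik3r2 no longer passed (adjusted p = 0.058), while Map2k1 (0.0251) and Ppp1r10 (0.0194) did.

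**Figure D2:**
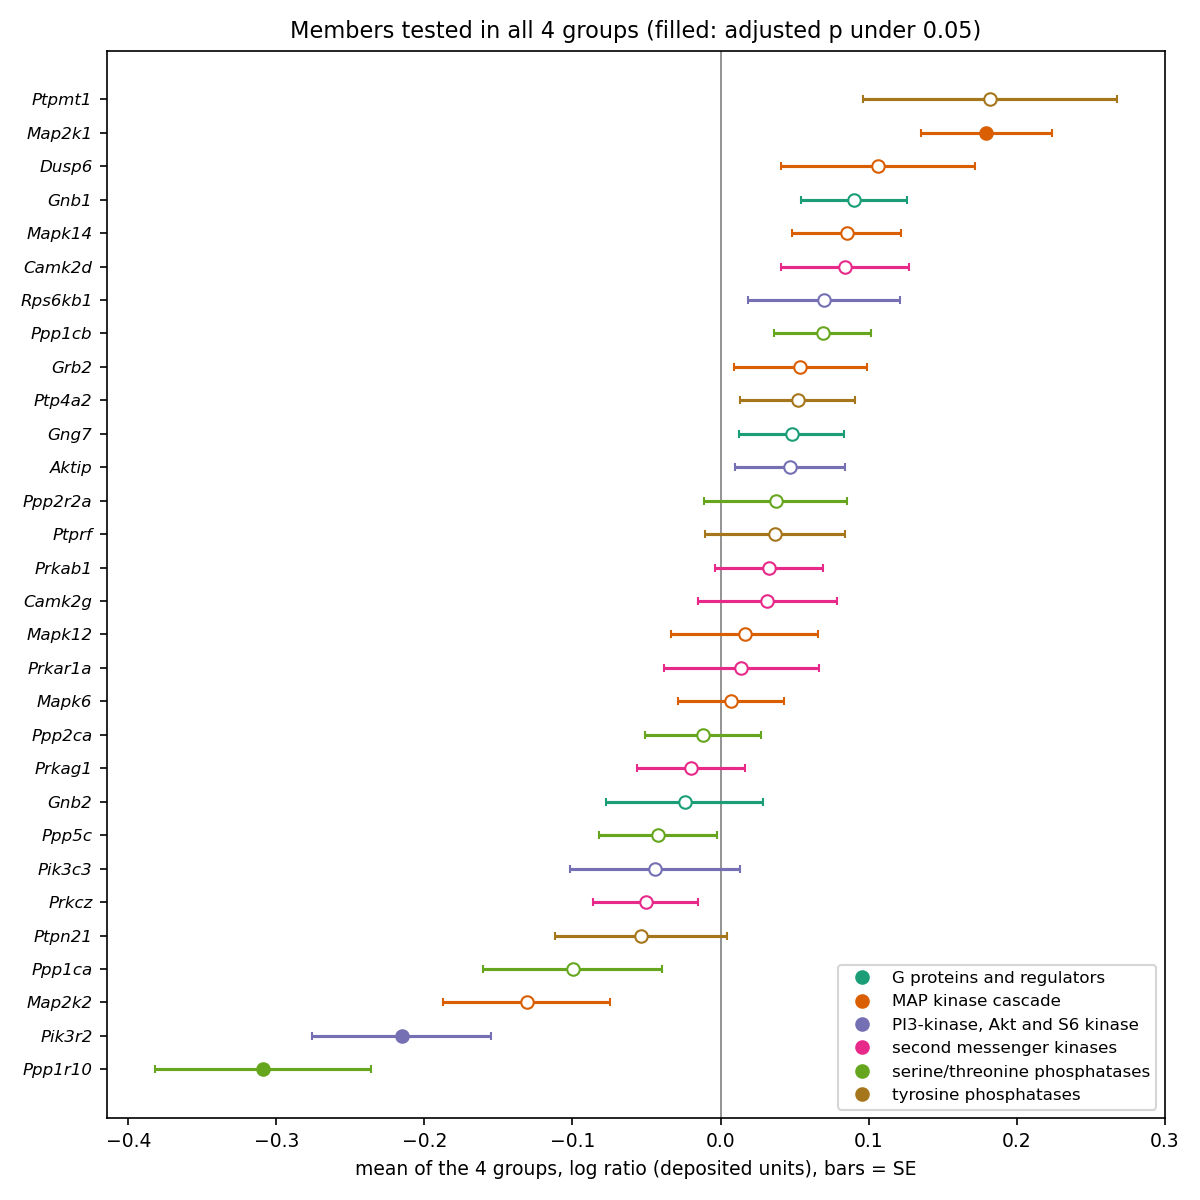
Mean of the 4 groups (horizontal axis, log ratio in deposited units) with its standard error for the 30 genes tested in all 4 groups, coloured by role. Filled points mark Map2k1 at 0.18, Pik3r2 at -0.22 and Ppp1r10 at -0.31, which passed an adjusted p of 0.05; the other 27 lie between -0.13 and 0.18.

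The stretch of 250 bases before the annotated start is shown for these 3 genes, since they passed in the widest comparison. The sequences are those of RefSeq on build GRCr8, in which 54 of the 63 genes had an entry. They lie at chr8:73650185-73650434, minus strand for Map2k1, at chr20:2842419-2842668, minus strand for Ppp1r10 and at chr16:18699247-18699496, plus strand for Pik3r2. Capitals mark matches on either strand to the GC box GGGCGG, to CCAAT, to the cAMP response element TGACGTCA and to TATAAA. Neighbouring matches may share end bases.
Map2k1: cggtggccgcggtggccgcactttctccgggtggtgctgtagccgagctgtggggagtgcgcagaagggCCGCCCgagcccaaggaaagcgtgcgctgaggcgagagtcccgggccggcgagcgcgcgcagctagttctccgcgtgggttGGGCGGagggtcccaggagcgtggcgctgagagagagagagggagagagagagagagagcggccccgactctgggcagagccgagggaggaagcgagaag
Ppp1r10: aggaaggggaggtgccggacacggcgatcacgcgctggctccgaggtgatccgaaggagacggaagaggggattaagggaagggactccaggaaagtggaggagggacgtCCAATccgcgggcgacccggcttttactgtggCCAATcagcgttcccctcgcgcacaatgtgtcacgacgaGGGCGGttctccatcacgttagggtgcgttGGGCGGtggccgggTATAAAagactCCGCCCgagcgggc
Pik3r2: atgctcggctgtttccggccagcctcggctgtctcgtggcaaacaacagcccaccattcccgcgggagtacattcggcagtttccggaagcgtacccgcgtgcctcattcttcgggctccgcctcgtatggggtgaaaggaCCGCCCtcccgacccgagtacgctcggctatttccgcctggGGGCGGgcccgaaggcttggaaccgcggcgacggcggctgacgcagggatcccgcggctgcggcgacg
Map2k1 and Pik3r2 each held 2 GC boxes and no match to the other motifs. Ppp1r10 held 3 GC boxes, 2 CCAAT boxes and 1 TATAAA. A GC box stood in 34 of the 54 genes with an entry and in 30.5% of all 33469 promoters of that length, CCAAT in 17 and 34.0%, TGACGTCA in 2 and 1.59%, and TATAAA in 3 and 12.9%. All promoters include those of genes that code for no protein, and a match is only a description of letters.

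Of the 12 genes of the MAP kinase cascade, which relays growth factor and stress signals, 8 were tested in at least 1 group, and of these Map2k1 was the one that passed in a comparison. Dusp1, Mapk8ip2, Mapk9 and Mapkapk5 were not tested. The pair values of Map2k1 were 0.12, 0.29 and 0.13 in SS overnight, 0.32, 0.25 and -0.11 in SS at 3 days, 0.31, 0.15 and 0.41 in SS-13BN/Mcw overnight and 0.016, 0.098 and 0.17 in SS-13BN/Mcw at 3 days. Thus 11 of 12 pairs and 21 of 24 arrays were positive, and the groups overlapped. In no single group did it pass, with the smallest adjusted p in SS-13BN/Mcw overnight (0.29 ± 0.088, SE, adjusted p = 0.0528). The smallest p of the strain and time differences of Map2k1 was that for time in SS-13BN/Mcw, -0.20 ± 0.12 (SE, adjusted p = 0.558).

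Map2k2, the close relative that also phosphorylates ERK, lay mostly on the other side. Its pair values were -0.037, -0.23 and 0.088 in SS overnight, -0.31, -0.078 and 0.25 in SS at 3 days, -0.22, -0.26 and -0.26 in SS-13BN/Mcw overnight and 0.11, -0.21 and -0.43 in SS-13BN/Mcw at 3 days. Negative pairs numbered 9 of 12, and the mean of the 4 groups, -0.13 ± 0.056 (SE), did not pass (adjusted p = 0.0996). Map2k1 stood above Map2k2 in 10 of 12 pairs, by a median of 0.37, and the exceptions were pair 3 of SS at 3 days and pair 1 of SS-13BN/Mcw at 3 days. This difference was set up after the values were seen and was not tested. Map2k2 was also among the genes with a dye difference in every pair, averaging -0.39 and 0.12 in its 2 orientations.

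The MAP kinases themselves showed little. Mapk14, the p38 alpha stress kinase, stood at 0.034, 0.13 and -0.087 in SS overnight, 0.19, 0.068 and -0.077 in SS at 3 days, 0.19, 0.069 and 0.069 in SS-13BN/Mcw overnight and 0.15, 0.072 and 0.20 in SS-13BN/Mcw at 3 days. It was positive in 10 of 12 pairs with a median of 0.070, and its mean of 0.085 ± 0.037 (SE) did not pass (adjusted p = 0.0996). Mapk14 averaged 0.26 with the high-numbered rat in Cy5 and -0.092 with the low-numbered rat in Cy5. Both its arrays lay on one side in 3 of 12 pairs. Mapk12, p38 gamma, stood at 0.16, -0.18 and -0.14, then -0.15, 0.11 and 0.13 in SS, and at -0.20, -0.23 and 0.18, then 0.24, 0.037 and 0.24 in SS-13BN/Mcw, overnight first. Its time difference in SS-13BN/Mcw was 0.26 ± 0.14 (SE, adjusted p = 0.495). Mapk6, an atypical MAP kinase also called ERK3, ran from -0.17 to 0.14. Dusp6, the phosphatase that removes phosphate from ERK and is itself an ERK target, ran from -0.23 to 0.60 with its highest value in pair 3 of SS-13BN/Mcw overnight. Dusp5, a nuclear ERK phosphatase, had 5 pair values from -0.37 to 0.34 and was tested in 2 groups, SS overnight (0.029) and the 3-day group of SS-13BN/Mcw (-0.12).

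Grb2, the adaptor that links receptor tyrosine kinases to Ras, had pair values of -0.013, -0.20 and -0.085 in SS overnight and of 0.034, 0.37 and 0.22 in SS at 3 days. All pairs of SS overnight were negative and all of SS at 3 days positive. The difference of 0.31 ± 0.12 (SE, 3 days minus overnight) did not pass (unadjusted p = 0.0252, adjusted p = 0.987). Opposite signs in every pair of both times occurred in 1.05% of 760 features in SS. In SS-13BN/Mcw Grb2 lay between -0.10 and 0.20 at both times.

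Casein kinase 2, a constitutively active kinase with many substrates, was represented by its regulatory subunit Csnk2b. In SS overnight its pair values were 1.17, 0.34 and 0.88, with a mean of 0.80 ± 0.42 (SD, n = 3), and this passed in limma (adjusted p = 0.0302). In this group 2 of 39 genes passed, 1 on each side, against 1.14% of all 1138 features (0.967% positive and 0.176% negative), and the other was Akt1. Csnk2b stood at 0.40, 0.69 and 0.36 in SS-13BN/Mcw overnight (0.48 ± 0.18, SD, n = 3), where it did not pass (adjusted p = 0.0528), and at 0.20 and 0.27 in pairs 1 and 3 of SS-13BN/Mcw at 3 days. All its 8 pair values were positive, and it had none in SS at 3 days. The strain groups overlapped overnight, and their difference of 0.31 ± 0.19 (SE, SS minus SS-13BN/Mcw) did not pass (adjusted p = 0.961). Csnk2b was more positive on arrays with the high-numbered rat in Cy5 (mean 0.73) than on the swapped ones (0.35). Its call in SS overnight was lost without pair 1 of that group (0.61, adjusted p = 0.255) or without pair 3 (0.75, adjusted p = 0.112), and also without pair 1 of either SS-13BN/Mcw group or pair 3 of SS-13BN/Mcw at 3 days (adjusted p 0.0563 to 0.0568).

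The phosphoinositide 3-kinase branch, in which this lipid kinase activates Akt and thereby S6 kinase, held the gene farthest on the negative side in SS overnight. Akt1, the broadly expressed Akt kinase, stood at -0.79 and -0.66 in pairs 1 and 2 (mean -0.73 ± 0.095, SD, n = 2) and had no value from both orientations in pair 3 (adjusted p = 0.0394). At 3 days in SS it stood at -0.086 and 0.13 in pairs 1 and 3, and in SS-13BN/Mcw it had 1 value, 0.0051 in pair 1 overnight. The time difference in SS was 0.75 ± 0.15 (SE) with an unadjusted p of 0.00222 and an adjusted p of 0.987, so it did not pass over the 879 features tested. No strain difference could be tested for Akt1. With pairs of a single orientation kept, pair 3 entered, the overnight value was -0.53 and it no longer passed (adjusted p = 0.208). It could not be tested without pair 1 or 2 of its own group. Without pair 3 of SS at either time, or without pair 1 of either SS-13BN/Mcw group, its adjusted p was 0.0528 to 0.0698. Akt2, the form linked to insulin action, had pair 1 alone in 3 groups, at -0.35 in SS overnight, -0.19 in SS-13BN/Mcw overnight and 0.20 in the 3-day group of SS-13BN/Mcw.

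Pik3r2 had pair values of 0.043, -0.23 and -0.16 in SS overnight and of -0.25, 0.067 and -0.0052 in SS at 3 days. In SS-13BN/Mcw they were -0.30, -0.16 and -0.81 overnight and -0.26 in both measured pairs at 3 days. All 5 pairs of SS-13BN/Mcw were negative, as were 4 of 6 in SS, and the strains overlapped. The overnight value in SS-13BN/Mcw, -0.43 ± 0.34 (SD, n = 3), passed (adjusted p = 0.0371). Without pair 3 of that group it was -0.23 (adjusted p = 0.235), without pair 1 it was -0.49 (adjusted p = 0.0565), and without pair 2 or 3 of SS overnight or pair 2 of SS-13BN/Mcw at 3 days the adjusted p was 0.0518 to 0.056. With pairs of a single orientation kept it was 0.0542. The mean of the 4 groups also ceased to pass without pair 2 of SS overnight (-0.20, adjusted p = 0.0584) or pair 1 of SS at 3 days (-0.19, adjusted p = 0.0504). Pik3c3, the lipid kinase of endosomes and autophagy, ran from -0.32 to 0.35, and Rps6kb1 from -0.29 to 0.31. Aktip ran from -0.15 to 0.24.

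Of the 11 genes of serine/threonine phosphatases 8 were tested in at least 1 group, and of these Ppp1r10 passed in SS-13BN/Mcw overnight and in the mean of the 4 groups. Its pair values were -0.14, 0.039 and -0.044 in SS overnight, -0.20, 0.012 and -0.022 in SS at 3 days, -0.50, -0.28 and -1.03 in SS-13BN/Mcw overnight and -0.20 and -0.83 in pairs 1 and 3 of SS-13BN/Mcw at 3 days. Overnight every SS-13BN/Mcw pair lay below every SS pair, and at 3 days pair 1 of both strains lay near -0.20. The overnight mean in SS-13BN/Mcw was -0.60 ± 0.38 (SD, n = 3, adjusted p = 0.0189), and the mean at 3 days, -0.52 ± 0.44 (SD, n = 2), did not pass (adjusted p = 0.143). The strain difference was 0.55 ± 0.19 overnight (SE, SS minus SS-13BN/Mcw, unadjusted p = 0.0155, adjusted p = 0.939) and 0.44 ± 0.22 at 3 days (SE, adjusted p = 0.623). Without pair 3 of SS-13BN/Mcw overnight the overnight value was -0.39 and did not pass (adjusted p = 0.141), nor did it with pairs of a single orientation kept (-0.60, adjusted p = 0.0604).

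**Figure D3:**
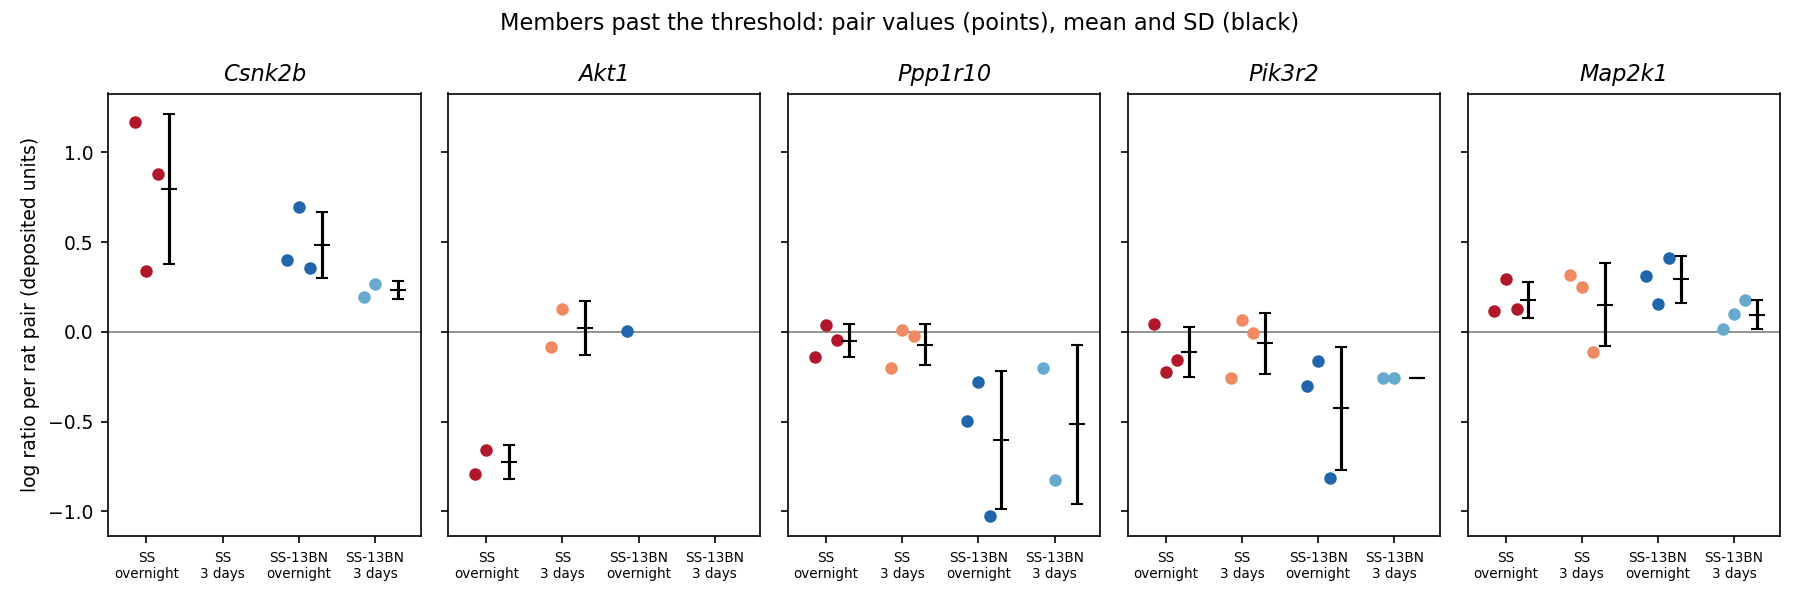
Log ratio (vertical axis, deposited units) of the 5 genes past an adjusted p of 0.05 in at least 1 comparison, by group; points are rat pairs and black bars the mean and SD where 2 or more pairs had a value. Csnk2b is positive in all 8 pairs, Akt1 is far below 0 only in the SS overnight pairs among its 5 values, and Ppp1r10 reaches -1.03 in SS-13BN/Mcw overnight.

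In SS-13BN/Mcw overnight, where Ppp1r10 and Pik3r2 were the 2 genes of 36 that passed, both negative, 10.6% of all 1099 features passed, 3.18% on the positive and 7.37% on the negative side. With values as deposited, not centred, 4 of the 36 passed, with Map2k1 and Csnk2b added on the positive side. The same 4 passed after quantile normalization and with all 3 pairs required. At an unadjusted p under 0.05 stood 5 of the 36 genes, against 30.6% of all features.

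Proximal tubule markers lay far on the negative side, in some pairs together with these genes and in others not. Of the 13 measured markers, 12 were negative in SS-13BN/Mcw overnight and 11 passed on that side, against 7.37% of all features. At 3 days in SS-13BN/Mcw 8 of 12 tested passed (2.32%). In SS 0 of 12 passed overnight (0.176%) and 0 of 10 at 3 days (0%). The marker list was chosen with earlier results of these data known. The mean over the 7 markers with all 12 pairs was -0.86, -1.24 and -2.20 in pairs 1, 2 and 3 of SS-13BN/Mcw overnight, and -1.05, -1.44 and -1.32 at 3 days. In SS it was -0.57, -0.90 and -0.40 overnight and -1.29, -0.36 and -0.26 at 3 days. Pair 3 of SS-13BN/Mcw overnight was the lowest pair for the markers, for Ppp1r10 and for Pik3r2, and it was the highest of the 12 for Map2k1. Pair 1 of SS at 3 days had the lowest SS values of the markers, Ppp1r10 and Pik3r2. Other pairs ran against this order. Pair 2 of SS overnight had the lowest markers of its group (-0.90) and the highest Ppp1r10 of all pairs (0.039). From pair 1 to pair 2 of SS-13BN/Mcw overnight the markers were lower (-0.86 and -1.24), while Ppp1r10 (-0.50 and -0.28) and Pik3r2 (-0.30 and -0.16) were higher and Map2k1 (0.31 and 0.15) was lower. No relation over the 12 pairs was computed. Fibroblast and matrix markers lay mostly on the positive side, with a mean over the 3 that had all pairs between -0.11 and 0.93, above 0 in 11 of 12 pairs. Overnight 3 of 6 tested passed on that side in SS (0.967% of all features) and 3 of 6 in SS-13BN/Mcw (3.18%). At 3 days 1 of 4 passed in SS (0.34%) and 0 of 5 in SS-13BN/Mcw (0.662%). In bulk tissue fewer cells of a type and less RNA per cell cannot be told apart, and the part of these markers in the results was not tested.

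**Figure D4:**
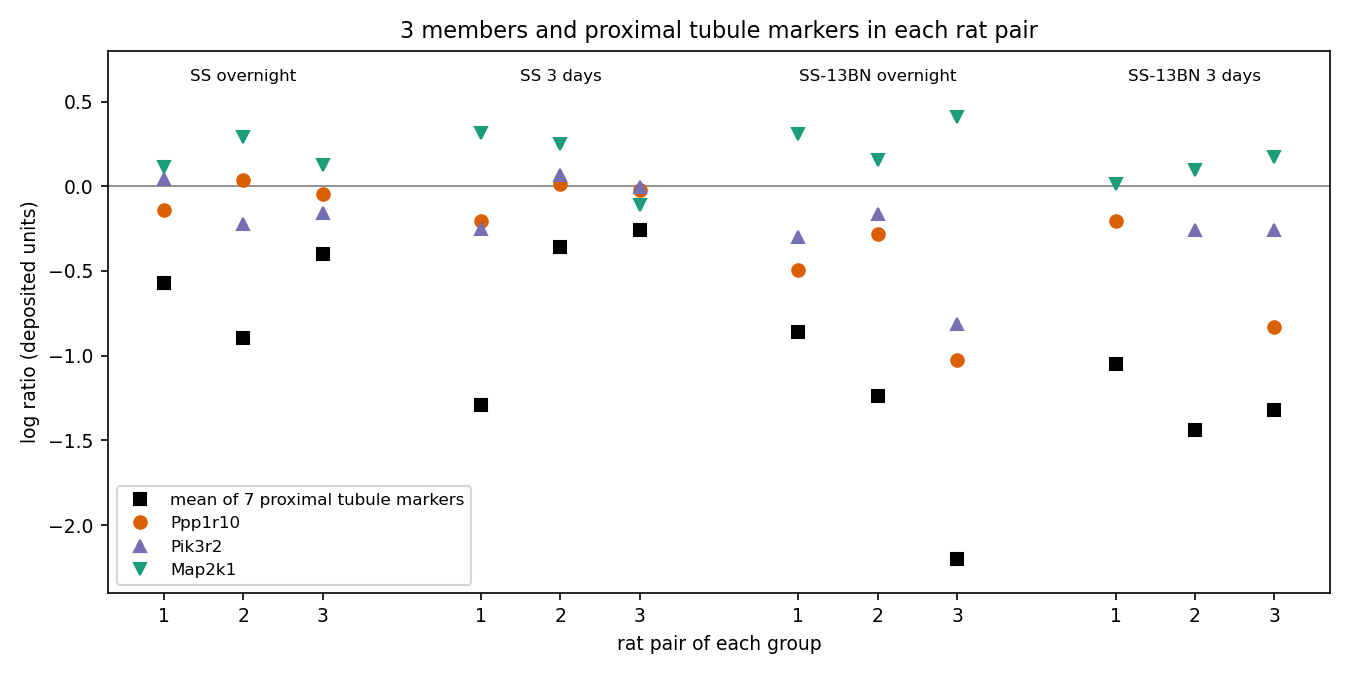
Log ratio (vertical axis, deposited units) in each of the 12 rat pairs for Ppp1r10, Pik3r2 and Map2k1 and for the mean of 7 proximal tubule markers. Pair 3 of SS-13BN/Mcw overnight holds the lowest marker mean (-2.20), the lowest Ppp1r10 (-1.03) and Pik3r2 (-0.81) and the highest Map2k1 (0.41), while pair 2 of SS overnight holds the highest Ppp1r10 (0.039) at a marker mean of -0.90.

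The tested catalytic subunits Ppp1ca, Ppp1cb, Ppp2ca, Ppp2cb, Ppp5c and Ppp6c did not pass in any group, or in the mean of the 4 groups where they were tested there. Ppp1cb, a catalytic subunit of protein phosphatase 1, was positive in 10 of 12 pairs, from -0.11 to 0.16, with 0.091, 0.15 and 0.10 in SS overnight (adjusted p = 0.418). It averaged -0.078 with the high-numbered rat in Cy5 and 0.22 with the low-numbered rat in Cy5. Both its arrays lay on one side in 4 of 12 pairs. Its sister subunit Ppp1ca was negative in 9 of 12 pairs, from -0.48 to 0.28, and lay below Ppp1cb in 9 of 12. Ppp2ca, the main catalytic subunit of protein phosphatase 2A, stayed between -0.15 and 0.21. Ppp2r2a, one of its regulatory subunits, had -0.30, -0.28 and 0.17 in SS overnight and 0.018, 0.18 and 0.27 in SS-13BN/Mcw at that time, a difference of -0.30 ± 0.14 (SE, adjusted p = 0.939). Ppp6c stood at -0.26, -0.18 and -0.032 in SS at 3 days (adjusted p = 0.516), and Ppp5c at -0.082, -0.12 and -0.19 in SS-13BN/Mcw overnight, below each SS pair of that time.

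The protein kinases A and C, AMP-activated kinase and calcium/calmodulin-dependent kinases held 11 genes, some of them for regulatory subunits. Of these genes 7 were tested in at least 1 group, and none of the 7 passed in any comparison run. Camk1, Camk2b, Camkk1 and Prkar2a were not tested. Prkcz, an atypical protein kinase C, was negative in 9 of 12 pairs. Its values were -0.21, -0.082 and -0.096 in SS overnight, -0.19, -0.15 and 0.061 in SS at 3 days, -0.093, -0.043 and -0.12 in SS-13BN/Mcw overnight and 0.15, -0.0030 and 0.17 in SS-13BN/Mcw at 3 days. The pairs of SS-13BN/Mcw did not overlap between times, and the difference of 0.19 ± 0.10 (SE, 3 days minus overnight) did not pass (adjusted p = 0.484); 21.4% of 744 features did not overlap in this comparison. Prkab1, a subunit of the energy sensor AMP-activated kinase, stood at -0.15, -0.070 and -0.0060 in SS at 3 days, below the -0.0025, 0.014 and 0.31 of SS-13BN/Mcw (difference -0.18 ± 0.10, SE, adjusted p = 0.623). Its partner Prkag1 stayed between -0.19 and 0.15. Camk2d, the delta form of the calcium/calmodulin-dependent kinase, was positive in 9 of 12 pairs (mean 0.084 ± 0.043, SE, adjusted p = 0.162), and Prkar1a ran from -0.34 to 0.18. Camk2g, the gamma form, ran from -0.21 to 0.15 over 10 pairs, and Prkcb, a classical protein kinase C, from -0.14 to 0.11 over 7.

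Ptpmt1, a mitochondrial phosphatase needed to make cardiolipin, had the widest strain contrast at 3 days among the 4 tested there of the 12 genes of tyrosine phosphatases and their relatives. Its pair values were 0.62, 0.42 and 0.16 in SS and -0.10, -0.26 and -0.23 in SS-13BN/Mcw, so that every pair of one strain lay opposite to the other, as in 2.99% of 703 features. The difference was 0.60 ± 0.24 (SE, SS minus SS-13BN/Mcw, unadjusted p = 0.0295) and did not pass (adjusted p = 0.574). Overnight it stood at 0.52, 0.028 and 0.19 in SS and at -0.13, -0.013 and 0.97 in SS-13BN/Mcw, where pair 3 stood alone. Ptprf, a receptor phosphatase of cell adhesion, stood at -0.11, -0.0073 and -0.25 in SS at 3 days and at 0.21, -0.11 and 0.36 in the other strain, which overlapped (difference -0.27 ± 0.13, SE, adjusted p = 0.623). Overnight it lay between -0.099 and 0.22 in both strains. Ptp4a2 ran from -0.14 to 0.23, and Ptpn21, a phosphatase with a membrane-binding domain, from -0.40 to 0.33. Ptpn5, known best from neurons, was -0.11, -0.083 and 0.063 in SS overnight and 0.25 and 0.13 in SS-13BN/Mcw at 3 days (adjusted p = 0.402).

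Of the 6 genes of G proteins and their regulators 5 were tested in at least 1 group, and none of these passed. Gnb1, a beta subunit, stood at -0.0087, 0.19 and 0.070 in SS overnight, 0.18, 0.052 and -0.020 in SS at 3 days, 0.17, 0.0018 and 0.22 in SS-13BN/Mcw overnight and 0.055, 0.050 and 0.12 in SS-13BN/Mcw at 3 days. Positive pairs numbered 10 of 12, with a mean of 0.090 ± 0.036 (SE, adjusted p = 0.0802). Gnb2, its close relative, was positive in 5 of 12, from -0.27 to 0.23, and lay below Gnb1 in 9 of 12. Gng7, a gamma subunit, stood at -0.089, -0.14 and -0.12 in SS overnight, 0.078 and 0.24 in SS at 3 days, 0.12, 0.16 and -0.012 in SS-13BN/Mcw overnight and 0.021, 0.094 and 0.080 in SS-13BN/Mcw at 3 days. The SS overnight pairs lay below all other pairs of this gene, a pattern picked after its values were seen. Overnight, SS lay wholly below SS-13BN/Mcw in 2.01% of 897 features. With 2 pairs in SS at 3 days, Gng7 was not in the count without overlap for time in SS. Neither its time difference in SS (0.27 ± 0.11, SE, adjusted p = 0.987) nor its strain difference overnight (-0.20 ± 0.095, SE, adjusted p = 0.939) passed. Gna15, an alpha subunit found mainly in blood-forming cells, had 6 pair values from -0.24 to 0.39, and Gng8, another gamma subunit, had 7 from -0.076 to 0.22. The 1 regulator of G protein signalling with a pair value, Rgs14, stood at 0.22 in pair 2 of SS at 3 days.

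No gene passed in limma in SS at 3 days (0 of 32, against 0.34% of all 882 features, 0.34% positive and 0% negative) or in SS-13BN/Mcw at 3 days (0 of 33, against 2.98% of all 906, 0.662% positive and 2.32% negative). At an unadjusted p under 0.05 these groups had 2 of 32 and 1 of 33 genes, against 11.8% and 16% of all features. The 2 in SS were Grb2 at 0.21 ± 0.085 (SE, adjusted p = 0.355) and Ptpmt1 at 0.40 ± 0.17 (SE, adjusted p = 0.378), and the 1 in SS-13BN/Mcw was Ppp1r10. SS overnight had 2 of 39, against 15.1%. In each of the 4 groups and in their mean the share of these genes at an unadjusted p under 0.05 was below that of all features, and the contrast between both shares was not tested. Genes positive in all 3 pairs of a group numbered 6 of 36 in SS overnight (22.5% of all features), 3 of 29 in SS at 3 days (14.2%), 9 of 32 in SS-13BN/Mcw overnight (29.6%) and 9 of 26 in the 3-day group of SS-13BN/Mcw (19.4%). Genes negative in all 3 numbered 4 (17.5%), 4 (16.7%), 8 (26%) and 4 (24.2%) in the same order. Of the 25 genes with 12 pairs none was positive in every pair (1.71% of all features) and none negative in every pair (3.57%).

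None of the differences between groups passed by limma, for these genes or for any feature. The strain difference had 0 of 36 genes overnight and 0 of 30 at 3 days, the time difference 0 of 32 in SS and 0 of 31 in SS-13BN/Mcw, and 0% of all features passed in each. At an unadjusted p under 0.05 the numbers were 1, 1, 3 and 0 in that order, against 4.85%, 8.14%, 1.93% and 11% of all features. The 3 in SS over time were Akt1, Gng7 and Grb2. These p-values leave out that rats are common to both times. With the rat block in limma the unadjusted p was 0.00082 for Akt1, 0.0126 for Gng7 and 0.0155 for Grb2. The adjusted p was 0.548, 0.987 and 0.987 in that order, so none passed. Genes whose 3 pairs did not overlap between groups numbered 3 of 32 for strain overnight (8.92% of all features), 2 of 25 for strain at 3 days (14.5%), 4 of 29 for time in SS (6.71%) and 1 of 26 for time in SS-13BN/Mcw (21.4%). The SS pairs lay above in 2 of the 3 overnight, Ppp1r10 and Ppp5c (6.91% of all features), and below in 1, Gng7 (2.01%). At 3 days SS lay above in Ptpmt1 (7.4%) and below in Prkab1 (7.11%). Opposite signs in every pair, as in Ptpmt1 and Grb2, were found in 0 genes between strains overnight (0.892%) and in 0 between times in SS-13BN/Mcw (4.57%). Prkcz was the 1 gene of SS-13BN/Mcw, higher at 3 days (10.2% higher and 11.2% lower over all features). The 4 in SS were Grb2, Pik3c3 and the small phosphatase Ptp4a2, higher at 3 days (1.84%), and Ppp1cb, lower at 3 days (4.87%).

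Other signalling genes on the array were counted in the mean of the 4 groups from fixed lists of each class, beside the 26.7% of all features that passed there (12.5% positive and 14.1% negative) and the 52.3% that were positive. Lists this short are not set apart from those shares here. Of 7 kinases of other families tested, 1 passed on each side: Sgk1, the aldosterone-induced kinase that acts on the epithelial sodium channel, at -0.19 ± 0.059 (SE, adjusted p = 0.0328), and Grk6, a kinase of G protein-coupled receptors, at 0.13 ± 0.047 (SE, adjusted p = 0.0492). Of 9 other alpha subunits, cyclases and effectors 1 passed, the stimulatory alpha subunit Gnas at -0.12 ± 0.034 (SE, adjusted p = 0.0215), while Gnai2 (-0.071 ± 0.069, SE) and Gnai3 (0.078 ± 0.048, SE) did not. Of 6 small GTPases and adaptors all were positive and 2 passed, the 14-3-3 protein Ywhah at 0.29 ± 0.043 (SE, adjusted p = 0.00082) and the Ras relative Rap1b at 0.15 ± 0.034 (SE, adjusted p = 0.00613). Of 3 receptors 2 passed, Pdgfra at 0.40 ± 0.13 (SE, adjusted p = 0.044) and Gcgr at -0.33 ± 0.055 (SE, adjusted p = 0.00139), and of 2 downstream transcription factors none did. With the rat block Sgk1 (0.0765), Grk6 (0.0883) and Pdgfra (0.0675) no longer passed.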

How the data were processed

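The authors deposited 1 log ratio per probe and array for 24 arrays. How it was made from the scans, its log base and its numerator: not given in the sources used here. Of 3742 probes 1766 had a value. Of these 1426 had 1 gene symbol, 29 several and 311 none, and 1421 of the 1426 were matched to the rat gene table by gene number. Each array was centred on its median, the 2 arrays of a pair were averaged, and so were probes of a gene. limma fitted 1 coefficient per group over all 12 pairs. Its p-values are two-sided, adjusted by Benjamini-Hochberg over every feature tested, and rest on the spread from one pair of rats to the next.

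Low-numbered rats recur at both times of a strain by the titles, which pairs these groups. Deviations from the group mean correlated between times with r from -0.024 (rat 2 of SS) to 0.62. A fit with that rat as a random block (consensus correlation 0.275) was run beside the main one, as were other centrings, scalings, turning by dye, single probes, other filters on missing values and leaving out each pair. On simulated data with the real missing values, in features with 12 pairs, changes of 0.5 were recovered in 85 (overnight) and 88 percent (3 days) for SS, in 82 and 87 percent for SS-13BN/Mcw, and in 97 percent for the mean of the 4 groups. Changes of 1 were recovered in 99 percent in each group and 100 percent in the mean. False calls numbered 8 and 8, 10 and 13, and 16 in that order. In this simulation 100 features per size were changed in all 4 groups at once, and noise was drawn independently for each pair. In the data 13 features passed in SS overnight and 3 in SS at 3 days, and fewer changed features make the adjusted threshold stricter. The recovered shares therefore do not carry over to the real groups, or to genes with fewer pairs such as Csnk2b and Akt1.

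The genes and lists were chosen with earlier results of these data known. Full values are given for each gene past the threshold, the 5 smallest p per group and in the mean, and the 3 smallest per difference, and the highest and lowest mean of each role is named, with some neighbours named after their values were seen. Software was R 4.3.3, limma 3.58.1, statmod 1.5.0, Python 3.11.15 and matplotlib 3.10.9.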

Additional observations from a re-analysis of the deposited data

How the results depend on the processing

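Swapped arrays correlated positively after the orientation means were subtracted, but with these means kept r ran from -0.059 to 0.75. That check therefore does not settle the direction of the ratios. Turning 1 array of each pair by its dye changed most counts. Then 10 genes passed in SS overnight, 13 in SS at 3 days and 9 in SS-13BN/Mcw overnight. In SS-13BN/Mcw at 3 days 8 passed, and in the mean of the 4 groups 18. Turned this way, Akt1 stood at 0.020 in SS overnight, Ppp1r10 at 0.17 and Pik3r2 at 0.18 in SS-13BN/Mcw overnight, and Pik3r2 at 0.027 in the mean. In SS overnight 1 gene passed with all 3 pairs required and 1 with pairs of a single orientation kept. In SS-13BN/Mcw overnight 4 passed with values as deposited, after quantile normalization and with all 3 pairs required, and 1, Ptpn5, with single orientations kept. In SS-13BN/Mcw at 3 days 1 passed, Ppp1r10, both after quantile normalization and after arrays were brought to the same spread. In the mean 1 passed with all 3 pairs required, where Ppp1r10 and Pik3r2 could not be tested, and 5 with single orientations kept. With the replicate block 2 passed in SS overnight, 2 in SS-13BN/Mcw overnight and 2 in the mean, and beyond Pik3r2 in the mean it changed no call of these genes. Leaving out each pair in turn gave 0 to 2 genes in SS overnight, 0 to 4 in SS-13BN/Mcw overnight, 0 to 1 in SS-13BN/Mcw at 3 days and 1 to 5 in the mean, and 0 throughout in SS at 3 days and in the 4 differences. Over all features, 12 in place of 116 passed in SS-13BN/Mcw overnight without its pair 3, and 0 in place of 13 in SS overnight without its pair 1 or 3. The cause of these changes was not tested. No depth or signal over background comes with the ratios, and the number of rat pairs limits the precision.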
